A study of Komagataella phaffii CBS 7435 with 16 samples.

Results

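The genes described here were high soon after the oxygen supply was lowered in chemostat cultures of Komagataella phaffii and lower again at the later samplings. They numbered 70 of 5041 nuclear features that met the same limits on level and position, and of 5564 features in the tables. RNA was sequenced in 16 libraries of the wild-type strain CBS7435, with 4 biological replicates in each of 4 groups. The labels do not say whether the same reactors were sampled in more than one group, so the groups may not be independent. By the sample labels, one group is labelled 30% oxygen and was taken after 5 volume changes (replacements of the reactor volume). The other groups are labelled 0% oxygen and were taken after 0.4, 4 or 5 volume changes. The treatment protocol describes these points by the inlet gas. It gives 66 h with 21% oxygen in the inlet gas, and 5, 50 and 70 h from the moment the inlet gas was lowered to 8%. The groups labelled 0% oxygen were thus still supplied with oxygen. Below, 30% oxygen and 0% oxygen are used as group names taken from the labels. The strain, glucose limitation, temperature of 25 °C and pH of 5.5 were common to all groups. If the cultures of the 0% groups had first been grown as the group at 30% oxygen was, that group was also younger. The labels do not settle this, and the parts of oxygen and of age in these comparisons cannot be told apart.

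Komagataella phaffii is a methylotrophic yeast used to produce recombinant proteins, and it depends strongly on respiration. In yeasts, low oxygen limits respiration and the oxygen-requiring steps of sterol, heme and unsaturated fatty acid synthesis, and glycolytic and fermentative gene expression often rises. A response that is strong at first and weaker once a culture has settled into a new steady state is a common form of adaptation in microbes. The deposited tables give the features by identifier alone. None of the 5040 genes of the reference table of another strain (GS115, assembly ASM2700v1) carries such an identifier, so no function is given for any member, and no pathway list could be applied.

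Members were chosen by the measured values themselves. Levels were given in CPM, the estimated count scaled to a fixed total over the 5362 nuclear features whose identifiers carry a t suffix, and averaged per group. The early change was the log2 ratio of 0.4 volume changes over 30% oxygen, and had to be at least 1. The return was the log2 ratio of the 8 libraries at 4 and 5 volume changes over 0.4 volume changes, and had to be at most -0.8. Both ratios used a pseudocount of 1. A feature also needed a mean of at least 10 CPM in one of the 3 sets, and a place outside the first and last 20 such features of its chromosome. Of 175 eligible features with an early change of at least 1, 70 (40%) met the limit on the return, and 105 did not. The values that follow for the early rise and the return are therefore descriptions of the choice. Where the model fitted to all features gives a value for these contrasts, it is printed as a description too, and supports nothing.

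**Figure D1:**
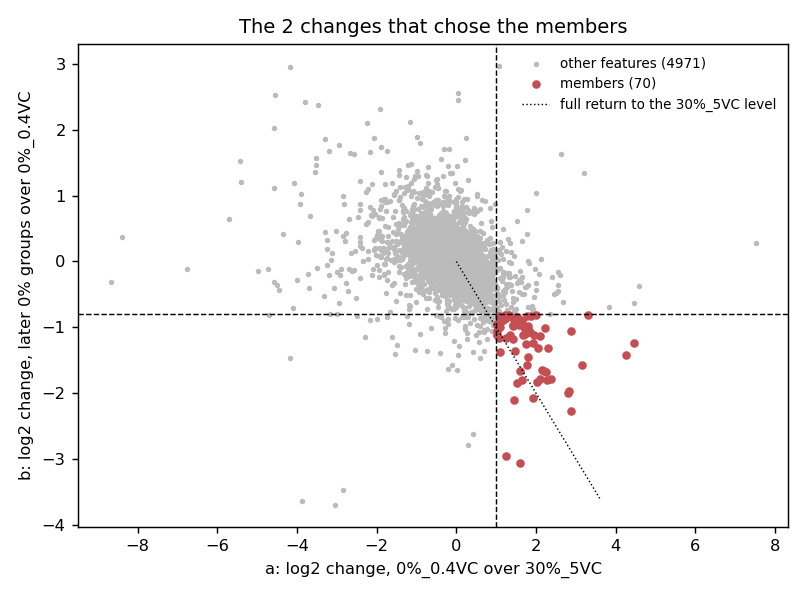
Each point is a nuclear feature with a mean of at least 10 CPM; the horizontal axis is the log2 change of 0.4 volume changes of 0% oxygen over 30% oxygen, and the vertical axis is the log2 change of the later 0% groups over 0.4 volume changes. The 70 members (red) lie right of 1 and below -0.8 (dashed lines), 59 of them above the dotted line that marks full return to the level at 30% oxygen.

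The early changes of the members ran from 1.02 to 4.45 on the log2 scale, with a median of 1.68. As a ratio of mean CPM, the median rise was 3.27-fold and the highest 22.2-fold. The early log2 change was at least 2 in 20 members, between 1.5 and 2 in 26, and under 1.5 in 24. The returns ran from -0.81 to -3.06, with a median of -1.11. Over all 5041 eligible features, the median early change was -0.11 and the median return 0.09 on this scale. The 2 members nearest the limit on the early change had values of 1.017 and 1.019, and the nearest features outside it 0.971 and 0.927. At the limit on the return, the 2 nearest members stood at -0.809 and -0.813, and the nearest features outside at -0.792 and -0.767.

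In all 70 members, each of the 4 libraries at 0.4 volume changes lay above each of the 4 at 30% oxygen, as did 17.4% of eligible features. In 67 members the 4 libraries at 0.4 volume changes also lay above all 8 later ones, as did 8.69% of eligible features. The exceptions were 3 members, and in each of them the overlap came from 1 library, replicate 2 at 5 volume changes, which had the lowest total of all 16. One exception, a chromosome 2 feature with a coding length of 2394 nt, reached 509 CPM in that library, against a lowest value of 494 CPM at 0.4 volume changes. The second, on chromosome 2 (321 nt), reached 491 CPM there, against a lowest early value of 412 CPM. The third, on chromosome 4 (1002 nt), reached 236 CPM, against a lowest early value of 233 CPM.

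Levels of the members spanned a wide range. Their mean CPM at 0.4 volume changes ran from 10.2 to 12111, with a median of 458. Per length, the deposited TPM at 0.4 volume changes ran from 33.4 to 17670, with a median of 238. The highest TPM value belonged to a feature of 216 nt, whose shortest effective length in any library was 42.8 nt, so its level per length rests on few usable start positions. The same limit holds for members of 162 and 177 nt, with shortest effective lengths of 23.4 and 27.4 nt. The lowest estimated count of any member in any library was 66, so no count was near 0. It belonged to the member of 162 nt, whose mean was 2.4 CPM at 30% oxygen. That member reached the limit of 10 CPM only at 0.4 volume changes, with 10.2 CPM.

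Together the members held 1.64 ± 0.08% of nuclear counts at 30% oxygen and 6.02 ± 0.10% at 0.4 volume changes of 0% oxygen (SD, n = 4 each). At 4 volume changes they held 2.58 ± 0.05%, and at 5 volume changes 2.62 ± 0.17% (SD, n = 4 each). The 4 libraries at 0.4 volume changes ranged from 5.94% to 6.17%, and no other library was above 2.77%. The later libraries did not overlap those at 30% oxygen, the lowest later share being 2.38% and the highest share at 30% oxygen 1.74%. One chromosome 1 feature of 1614 nt gave 1.21% of nuclear counts at 0.4 volume changes, and the 10 most counted members together gave 3.24%. That feature had 3654, 2443, 3961 and 2739.7 CPM at 30% oxygen, and 12394, 12672, 11849 and 11527 CPM at 0.4 volume changes. It had 5737, 4942, 5259 and 5295 CPM at 4 volume changes, and 4658, 5512, 5303 and 4448 CPM at 5, so the later libraries lay between the other groups without overlap.

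**Figure D2:**
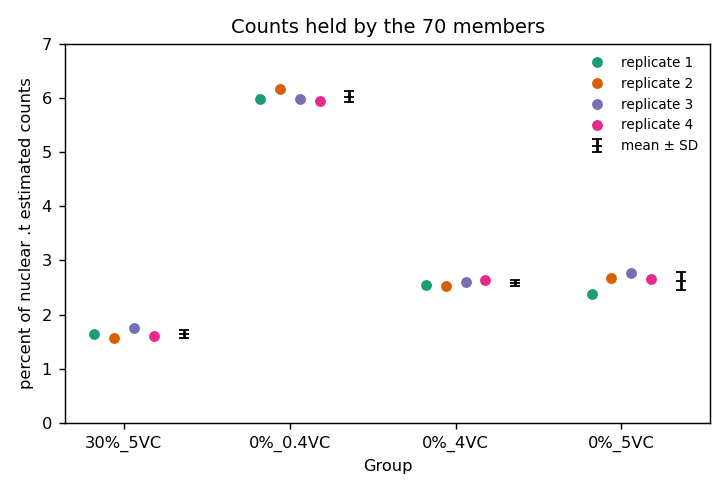
Percent of nuclear estimated counts held by the 70 members in each library (points, coloured by replicate number), with the mean and SD of each group (black). The share was 1.56% to 1.74% at 30% oxygen, 5.94% to 6.17% at 0.4 volume changes of 0% oxygen, and 2.38% to 2.77% at the later points.

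The members with the strongest early rise were PP7435_Chr2-0423.t01 and PP7435_Chr1-0156.t01. PP7435_Chr2-0423.t01 (chromosome 2, 216 nt) had 88.9, 57.9, 64.2 and 47.7 CPM at 30% oxygen, and 1341, 1371, 1622 and 1421 CPM at 0.4 volume changes. It had 740.3, 621, 489 and 490.1 CPM at 4 volume changes, and 720.1, 629, 398 and 789.8 CPM at 5. The 3 levels were separate: every later library lay below every early one and above every library at 30% oxygen. PP7435_Chr1-0156.t01 (chromosome 1, 1608 nt) had 166, 153, 149 and 181 CPM at 30% oxygen, and 3191, 3509, 2851 and 2847 CPM at 0.4 volume changes. Its later values were 1034, 876, 1329 and 1338 CPM at 4 volume changes, and 943, 1239, 1506 and 967 CPM at 5. Here too the later libraries lay between the other groups without overlap. Their log2 fold changes of 0.4 volume changes over 30% oxygen in edgeR, the count model fitted to all features, were 4.61 ± 0.24 and 4.37 ± 0.16 (SE). These 2 members also stood highest later: the later 0% groups against 30% oxygen gave log2 fold changes of 3.29 ± 0.22 for PP7435_Chr2-0423.t01 and 2.86 ± 0.14 for PP7435_Chr1-0156.t01 (SE), or 9.77-fold and 7.25-fold.

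The members with the strongest return were PP7435_Chr4-0973.t01 and PP7435_Chr3-0943.t01, and both ended below the level at 30% oxygen. PP7435_Chr4-0973.t01 (chromosome 4, 483 nt) had 87.4, 86.4, 82.0 and 79.1 CPM at 30% oxygen, and 217, 256, 274 and 272 CPM at 0.4 volume changes. It had 25.4, 23.8, 32.4 and 27.2 CPM at 4 volume changes, and 25.1, 35.1, 34.5 and 33.2 CPM at 5. All 8 later libraries were thus below all 4 at 30% oxygen. PP7435_Chr3-0943.t01 (chromosome 3, 1803 nt) had 69.9, 78.0, 73.7 and 89.8 CPM at 30% oxygen, and 194, 199.7, 171 and 184 CPM at 0.4 volume changes. Later it had 18.8, 17.5, 19.9 and 24.4 CPM at 4 volume changes, and 23.4, 24.9, 35.5 and 21.4 CPM at 5, again with no overlap with the libraries at 30% oxygen. Log2 fold changes of the later 0% groups over 0.4 volume changes were -3.20 ± 0.09 and -3.11 ± 0.11 (SE) in edgeR. Against 30% oxygen the later groups gave -1.47 ± 0.09 for PP7435_Chr4-0973.t01 and -1.73 ± 0.11 for PP7435_Chr3-0943.t01 (SE).

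**Figure D3:**
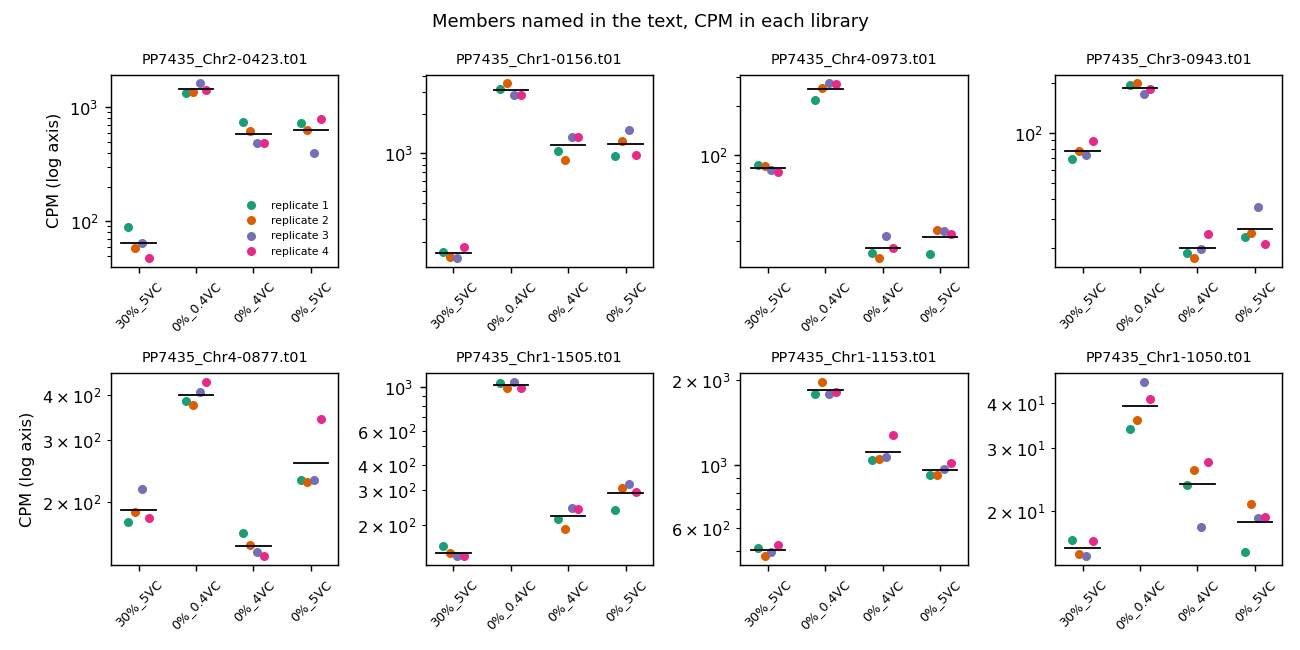
CPM (log axis) of 8 members in each library, coloured by replicate number, with the mean of each group as a line. All 8 had their highest group mean at 0.4 volume changes of 0% oxygen; PP7435_Chr4-0973.t01 and PP7435_Chr3-0943.t01 then lay below 30% oxygen, and PP7435_Chr2-0423.t01 and PP7435_Chr1-0156.t01 well above it.

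How completely the rise was undone differed widely among members. On the log2 scale of the rule, between 24.8% and 236% of the early rise was lost, with a median of 70.4%; values over 100% are falls below the level at 30% oxygen. The limit of -0.8 on the return fixes a least loss, which is a larger percent the smaller the early rise. Part of this spread was thus set by the rule. The median loss was 67.1% in members with an early change of at least 2, 59.9% from 1.5 to 2, and 90.4% under 1.5. The later level relative to 30% oxygen was at least 1 in 8 members, from 0.5 to 1 in 28, and within 0.5 on either side in 31. It was between -0.5 and -1 in 1 member and under -1 in 2. In all, 59 members stayed above the mean at 30% oxygen and 11 were below it.

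In edgeR's quasi-likelihood test, adjusted by the Benjamini-Hochberg method over 5452 features, all 70 members were called higher at 0.4 volume changes than at 30% oxygen. So were 23.8% of all features. All 70 were called lower in the later 0% groups than at 0.4 volume changes, as were 20% of all features. The rule used both contrasts, so nothing is read from these counts.

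The mean of the later 0% groups was also set against 30% oxygen, to ask what was left of the rise. Both means had entered the rule, so the counts describe the members. Of the 70, 49 were called higher, 4 lower and 17 neither, where 26.8% of all features were called higher and 26.6% lower. The median log2 fold change of the members was 0.54, and that of all tested features 0.01. Among the 49, log2 fold changes ran from 0.27 to 3.29 with a median of 0.73, or 1.66-fold. In the 17 without a call they ran from -0.32 to 0.42, with a median of 0.08. The 4 lower ones ran from -0.25 to -1.73. All 8 later libraries lay above all 4 at 30% oxygen in 39 members, as in 12.6% of eligible features. They lay below them in 3 members, and in 17.8% of eligible features. Of the 105 raised features that were not members, 105 were called higher later, with a median of 1.24. The limits that define those features also place their later mean above that at 30% oxygen.

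Taken one by one, the later groups gave like counts. At 4 volume changes 47 members were called higher than at 30% oxygen and 4 lower, where 24.6% of all features were higher and 25.4% lower. At 5 volume changes, the point with the same labelled number of volume changes as 30% oxygen, 48 were called higher and 3 lower, where 23.3% of all features were higher and 22.5% lower. Both comparisons share the libraries at 30% oxygen. The median log2 fold changes of the members were 0.50 at 4 and 0.59 at 5 volume changes.

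**Figure D4:**
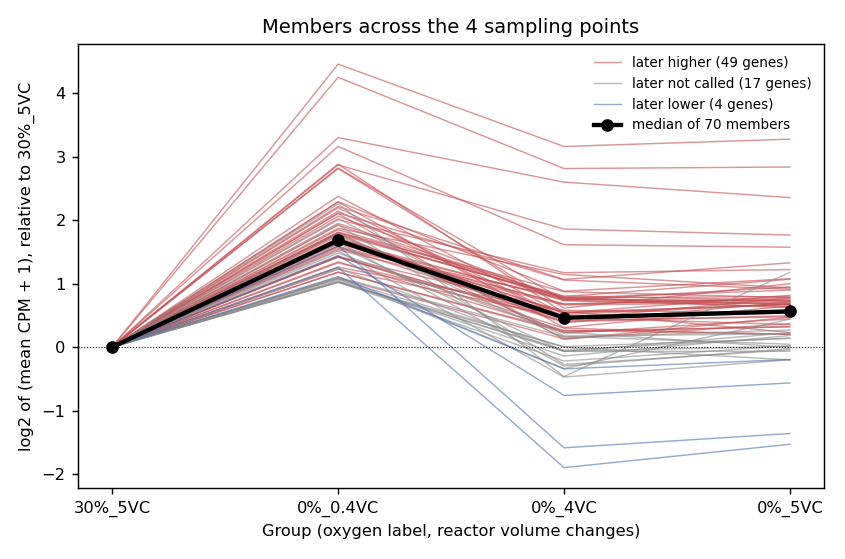
Log2 of the mean CPM plus 1 of each member relative to 30% oxygen, across the 4 groups, with 30% oxygen first and the 0% groups in order of volume changes. Lines are coloured by whether the later 0% groups were called higher (49), lower (4) or neither (17) against 30% oxygen in edgeR. The black line is the median of the 70 members, which peaked at 0.4 volume changes and changed little between the later groups.

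The rule used the 2 later groups only as one mean, so their difference is the contrast among the groups that the choice of members did not use. It asks whether the members went on moving between 4 and 5 volume changes of 0% oxygen. One of the 70 was called higher at 5 than at 4 volume changes and 0 were called lower, where 0.459% of all features were called higher and 0.183% lower. At an unadjusted p under 0.05, 12 members were higher and 4 lower in edgeR, and 350 and 318 of all 5452 features. DESeq2 called 2 members higher and 0 lower, where it called 1.27% of all features higher and 0.812% lower. The members' median log2 fold change was 0.08, and 47 of them were above 0. The same values were -0.13 and 26 of 105 for the other raised features, and 0.00 and 49.9% for all features. This difference between the lists was not tested.

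The called member was PP7435_Chr4-0877.t01, on chromosome 4 (1263 nt). It had 232, 228, 231 and 344 CPM at 5 volume changes, against 164, 152, 145 and 141 CPM at 4. No library of the one group reached the other, and the highest value, in replicate 4, stood far from the other 3. All libraries at 5 volume changes lay above all at 4 in 1 of the 70 members, and in 2.4% of eligible features. The log2 fold change of PP7435_Chr4-0877.t01 was 0.76 ± 0.14 (SE), with an adjusted p of 0.0161 in edgeR. It had 176, 188, 218 and 180.2 CPM at 30% oxygen, and 386, 376, 409.7 and 437 CPM at 0.4 volume changes, so at 4 volume changes all 4 libraries lay below all 4 at 30% oxygen, and at 5 all 4 lay above. Against 30% oxygen its log2 fold change was -0.30 ± 0.14 at 4 volume changes (adjusted p of 0.0907) and 0.46 ± 0.14 at 5 (adjusted p of 0.0117). The call between the later groups was lost without replicate 3 at 4 volume changes (0.72, adjusted p of 0.0581) and without replicate 4 at 4 volume changes (0.70, adjusted p of 0.0518).

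The next member by p, PP7435_Chr1-1505.t01 (chromosome 1, 1521 nt), had 237, 306, 323 and 295 CPM at 5 volume changes, against 213, 189.7, 245 and 241 CPM at 4. The groups overlapped through replicate 1 at 5 volume changes, and the log2 fold change of 0.37 ± 0.09 (SE) had an adjusted p of 0.0752 in edgeR. It was called in DESeq2 (adjusted p of 0.0115), and in edgeR without replicate 1 at 5 volume changes (0.47, adjusted p of 0.0126). The lowest p among members that were lower at 5 volume changes belonged to PP7435_Chr1-1153.t01 (chromosome 1, 1155 nt) and PP7435_Chr1-1050.t01 (chromosome 1, 342 nt). PP7435_Chr1-1153.t01 had 927, 924, 969.9 and 1015 CPM at 5 volume changes, against 1040.2, 1051, 1072 and 1279 CPM at 4, and these groups did not overlap. All libraries at 4 volume changes lay above all at 5 in 1 of the 70 members, and in 1.27% of eligible features. The log2 fold change of PP7435_Chr1-1153.t01 was -0.23 ± 0.09 (SE, adjusted p of 0.285). PP7435_Chr1-1050.t01 had 15.4, 20.9, 19.2 and 19.3 CPM at 5 volume changes, against 23.6, 26.1, 18.0 and 27.5 CPM at 4, with overlap and a log2 fold change of -0.38 ± 0.16 (SE, adjusted p of 0.335). Neither passed the threshold.

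The largest log2 fold change between the later groups among members, 1.59 ± 0.48 (SE), belonged to the chromosome 2 feature of 2394 nt noted above, picked out here after its values were seen. It had 102, 509, 234 and 223 CPM at 5 volume changes, against 31.4, 153, 110.2 and 44.6 CPM at 4. Its libraries varied over several-fold within both groups and overlapped, and the adjusted p was 0.158 in edgeR.

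**Figure D5:**
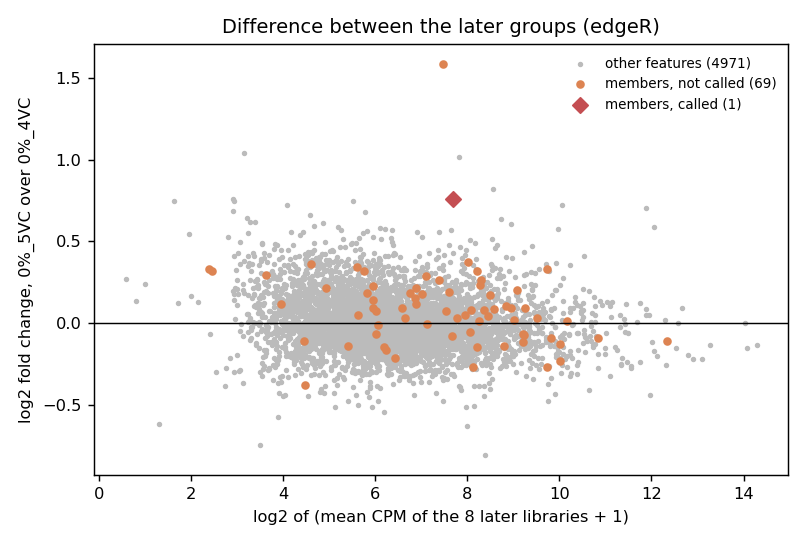
Log2 fold change of 5 over 4 volume changes of 0% oxygen (edgeR) against the log2 of mean CPM plus 1 of the 8 later libraries, for the members (orange) and the other eligible features (grey). The called member, PP7435_Chr4-0877.t01 (red diamond), stood at 0.76, and the highest orange point, at 1.59, was not called.

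The spread between replicates was of like size in members and in other features. The median SD of log2 of CPM plus 1 within a group was 0.112 for members and 0.141 for eligible features at 30% oxygen, and 0.102 and 0.115 at 0.4 volume changes. It was 0.183 and 0.225 at 4 volume changes, and 0.193 and 0.170 at 5. Single libraries stood a little to one side over many members. At 5 volume changes, 12 of 70 members were above the group mean in replicate 1, against 48 in replicate 3, with median deviations of -0.14 and 0.10. Of eligible features, 62.2% and 60.3% were above it in the same libraries, with median deviations of 0.04 and 0.05. At 0.4 volume changes, 20 members were above the group mean in replicate 1 and 45 in replicate 2, as were 48.5% and 60.1% of eligible features. At 4 volume changes, 26, 27, 44 and 47 members were above it in replicates 1 to 4, as were 64.4%, 21.5%, 65.7% and 67.8% of eligible features. Replicate 2 of that group had the lowest median deviation of all 16 libraries over the eligible features, -0.22, and -0.12 over the members.

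Members were found on all 4 chromosomes: 23 on chromosome 1, 17 on chromosome 2, 13 on chromosome 3 and 17 on chromosome 4. These were 1.48%, 1.33%, 1.07% and 1.72% of the eligible features of each chromosome. Coding lengths ran from 162 to 4638 nt with a median of 1238 nt, where the median was 1206 nt for the other raised features and 1194 nt for all eligible ones. Under 300 nt, there were 3 members (4.29%), against 3.13% of eligible features.

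By the order of rows in the tables, 8 members (11.4%) stood next to another member, in 4 pairs, and among the 105 other raised features 14 (13.3%) stood next to one of their own. The first pair was PP7435_Chr1-0156.t01 and a feature of 162 nt, whose mean CPM was 2.4 at 30% oxygen, 10.2 at 0.4, 3.94 at 4 and 4.98 at 5 volume changes. The identifier numbers of this pair were far apart, where those of each other pair were consecutive. Whether the first pair lies side by side on the chromosome was not checked. The second pair, on chromosome 1, comprised features of 678 and 891 nt. Their early log2 changes were 1.77 and 2.28, and their returns -0.83 and -1.80. The third, on chromosome 3, comprised features of 1587 and 4638 nt, with early changes of 1.22 and 1.85 and returns of -0.81 and -1.08. The fourth, on chromosome 4, comprised features of 1251 and 1002 nt whose profiles were close: early changes of 1.03 and 1.04, and returns of -1.05 and -1.01. In both features of the fourth pair, and in 1 other member on chromosome 4 (2022 nt), some estimated counts were not whole numbers, in 15, 16 and 12 libraries. Such counts arise when reads are shared between features, so the values of these 3 members are uncertain. Of eligible features, 1.11% had such counts in any library, and of the other raised features 0%.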

How the data were processed

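RNA-seq tables of 16 libraries were used. Per the labels' protocols, ribosomal RNA was depleted and libraries were directional. The authors deposited an estimated count for each feature, without normalisation, and its TPM (scaled for length and depth), as the file headers show. Named in the submitters' processing notes, with no role, are DESeq2 1.36.0, R 4.2.0, kallisto 0.44.0, SAMtools 1.9, Bowtie2 2.3.4.1 and cutadapt 1.18. The genome build, annotation and strand setting were not given in the sources used here. The shallowest library held 23085262 estimated counts and the deepest 40699763.

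Estimated counts were rounded. In edgeR 4.0.16 (R 4.3.3), 112 features were removed by filterByExpr, 5452 were tested, with TMM factors and 1 mean per group over all 16 libraries. Contrasts were tested by glmQLFTest with Benjamini-Hochberg adjustment; a feature was called at an adjusted p under 0.05. Standard errors came from the F statistic. Alternatives were RLE and upper-quartile factors, no filter, DESeq2 1.42.0, limma 3.58.1 on log2(TPM + 1), a replicate block, and leaving out each library; the rule itself was varied too. A count was called whole within 1e-06.

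On simulated data for 5 against 4 volume changes (5452 genes), 12% of 50 genes planted at 1.25-fold, 56% at 1.5-fold, 96% at 2-fold and 100% at 4-fold were recovered, and 8 of 5252 unchanged genes were called. The members and lists were chosen with earlier results of these data known. Identifiers were named by rank: the 2 largest early rises, the 2 strongest returns, the 2 highest and 2 lowest later levels against 30% oxygen, and the 2 lowest p in each direction between the later groups. Replicates are labelled biological, but the labels do not say whether a number marks one reactor followed over time.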

Additional observations from a re-analysis of the deposited data

Results flagged for a closer look

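Within groups of 4 libraries, 36 sets were examined (8 named members and the members' share of counts, in 4 groups), and 3 held a library far from the other 3; chance gives about 1 in 20, or 1.8. At 5 volume changes of 0% oxygen, replicate 4 had 344 CPM of PP7435_Chr4-0877.t01, and the others of its group 228 to 232 CPM. At 0.4 volume changes, replicate 2 had 1971 CPM of PP7435_Chr1-1153.t01, and the others 1782 to 1810.2 CPM. For the same feature at 4 volume changes, replicate 4 had 1279 CPM and the others 1040.2 to 1072 CPM.

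For PP7435_Chr4-0877.t01, the log2 fold change against 30% oxygen was 0.76 higher at 5 than at 4 volume changes (adjusted p of 0.0161 in edgeR). The flag is the same contrast as its call between the later groups, and not a second result. Differences between 0.4 volume changes and the later points are what chose the members and are not listed.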

How the results depend on the processing

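The rule gave 70 members, 85 with TMM-scaled CPM, 64 on TPM values, 69 with 4 and 67 with 5 volume changes alone as the later group, and 62 to 71 with 1 library left out. With limits of 1.2 and -1 it gave 40, with 0.8 and -0.6 it gave 104, and with a pseudocount of 0.1 it gave 72. Over all features, the members held 5.86% of counts at 0.4 volume changes and 2.49% at 4. In every setting run, all 70 members were called in both contrasts that the rule used. Against 30% oxygen the later groups gave 50 to 54 calls with 1 library left out, and 46 higher and 4 lower on log2(TPM + 1). Between the later groups, DESeq2 called 2 members in place of 1 (113 of all features in place of 35), and leaving out 1 library gave 0 to 2 (0 without replicate 3 or 4 at 4 volume changes, 2 without replicate 2 at 4 or replicate 1 at 5; 16 to 41 of all features), with a median log2 fold change of 0.04 to 0.14.

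Replicate numbers were not taken as pairs: deviations of same-numbered libraries correlated from -0.58 to 0.63, and 11 of 24 pairs were over 0.1. Libraries with different numbers correlated from -0.61 to 0.62, and the best match carried the same number in 18 of 48 cases. Because both ranges are alike, these correlations cannot decide whether a number marks one reactor. With a replicate block, 48 members were called higher and 4 lower in the later groups against 30% oxygen, and 1 was called between the later groups. On log2(TPM + 1), the median of all features for 0.4 volume changes against 30% oxygen shifted by -0.13, and 31.4% of all called features were higher, against 49.7% in edgeR. For the later groups against 0.4 volume changes, 64.7% were higher on log2(TPM + 1) and 47.8% in edgeR. Of simulated 1.5-fold differences between the later groups, 56% were recovered with 4 libraries a group, so smaller ones would often be missed. The simulation gave each gene the same dispersion in all groups. In the data, the median SD of eligible features was 0.225 at 4 and 0.170 at 5 volume changes. It was 0.141 at 30% oxygen and 0.115 at 0.4 volume changes. Recovery at the later groups' own spread was not simulated and may be lower.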
